A study of Rattus norvegicus with 8 samples.

Results

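The first 24 Mb of rat chromosome 20 is a stretch in which 3 of 5 bladder tumors returned fewer sequencing calls than control bladders. Its members are the 5163 tiles of 200 bp between positions 1 and 24000000 (build rn6) that held 3 or more CpGs in each of the 8 samples, out of 257628 such tiles over the genome, and the remainder of chromosome 20 held 3448. The measured values that picked the stretch were its coverage, so coverage is described here without a test, while methylation played no part in the choice.

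DNA methylation was measured by reduced representation bisulfite sequencing, which cuts DNA with enzymes at CpG-containing sites, converts unmethylated cytosine to uracil and reads the CpG-rich fragments. A call is one read of one CpG, and the methylation level is the percentage of calls that remained cytosine. All samples came from F344/DuCrj rats, 10 weeks old at the start, that drank water for 104 weeks: 3 control rats given 0 ppm dimethylarsinic acid gave bladders labeled as urothelium (C1, C2 and C3), and rats given 200 ppm gave 5 bladder tumors (BT-1 to BT-5). The methods describe the control samples as bladder tissue, do not say whether each tumor came from a different animal, and report no histology of these particular tumors. Samples of a group are treated as replicates on the labels' word, so p-values measure the spread between these samples. Tumors and bladders mix several cell types. A change in the mixture and a change within cells cannot be told apart in such DNA, and no cell type markers were measured.

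In mammals, methyl groups are carried mainly on CpGs. CpG-dense promoters, the stretches before gene starts, are usually unmethylated, whereas scattered CpGs elsewhere are usually methylated. Tumors commonly gain methylation at some CpG-dense promoters and lose it elsewhere. The number of reads from a segment depends, among other things, on how many copies of it the cells carry, and copy number was not measured here. The start of rat chromosome 20 carries the RT1 complex, the rat's major histocompatibility complex, whose genes present antigens to T cells.

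The promoters of 5 genes are printed because the results on single genes turn on them. *Bicc1* encodes an RNA-binding protein known for its role in kidney tubules, *Glp1r* the receptor for glucagon-like peptide 1, and *Lhfpl5* a membrane protein of the mechanotransduction complex of inner ear hair cells. *Phyhipl* is shown as a neighbor of a called window. *Pim1*, a serine/threonine kinase known as an oncogene, is shown as a promoter that stayed unmethylated in every sample. The sequences are the 250 bases before each gene's start as given by RefSeq for build GRCr8, 5′ to 3′ on the plus strand of chromosome 20, and the capitals mark CpGs that were read in all 8 samples.
Bicc1 (GRCr8 chr20:17448515-17448764): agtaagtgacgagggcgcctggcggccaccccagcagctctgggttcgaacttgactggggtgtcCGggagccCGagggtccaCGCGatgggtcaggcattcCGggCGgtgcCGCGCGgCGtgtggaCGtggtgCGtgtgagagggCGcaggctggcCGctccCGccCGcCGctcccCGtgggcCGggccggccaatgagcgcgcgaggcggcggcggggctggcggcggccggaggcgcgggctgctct
Glp1r (GRCr8 chr20:8973143-8973392): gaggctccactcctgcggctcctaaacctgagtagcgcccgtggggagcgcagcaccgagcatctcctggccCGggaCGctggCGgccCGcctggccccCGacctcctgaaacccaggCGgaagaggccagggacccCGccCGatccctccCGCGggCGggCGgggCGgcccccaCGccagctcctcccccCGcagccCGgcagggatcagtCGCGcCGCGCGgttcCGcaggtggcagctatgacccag
Phyhipl (GRCr8 chr20:18023581-18023830): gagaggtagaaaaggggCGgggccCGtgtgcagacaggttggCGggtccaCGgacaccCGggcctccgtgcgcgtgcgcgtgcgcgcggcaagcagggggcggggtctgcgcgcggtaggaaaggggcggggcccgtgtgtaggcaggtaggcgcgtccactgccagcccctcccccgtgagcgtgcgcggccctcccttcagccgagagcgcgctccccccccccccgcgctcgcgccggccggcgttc
Lhfpl5 (GRCr8 chr20:6633808-6634057): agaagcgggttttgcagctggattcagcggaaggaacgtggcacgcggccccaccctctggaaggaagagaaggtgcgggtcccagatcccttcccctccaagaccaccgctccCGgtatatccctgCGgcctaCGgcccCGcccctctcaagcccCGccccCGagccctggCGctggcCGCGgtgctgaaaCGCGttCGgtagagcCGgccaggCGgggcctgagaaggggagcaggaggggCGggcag
Pim1 (GRCr8 chr20:7556246-7556495): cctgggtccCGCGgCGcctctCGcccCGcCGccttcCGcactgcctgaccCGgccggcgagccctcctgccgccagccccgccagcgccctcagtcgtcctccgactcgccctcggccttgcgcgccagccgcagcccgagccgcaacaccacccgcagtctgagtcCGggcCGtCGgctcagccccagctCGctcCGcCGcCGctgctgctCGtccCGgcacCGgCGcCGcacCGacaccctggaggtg

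The samples held 51434938 to 73836223 calls each. As the share of the calls on chromosomes 1 to 20, relative to the control mean on the log2 scale, coverage of the stretch was -0.83 in BT-1, -0.89 in BT-2 and -0.40 in BT-3. It was -0.04 in BT-4 and -0.06 in BT-5, and the controls lay between -0.01 and 0.00. On the linear scale BT-1 had 0.564, BT-2 0.540 and BT-3 0.756 of the control share. BT-1 was low throughout, between -0.91 and -0.75 in the 12 windows of 2 Mb, and BT-2 ranged from -1.03 to -0.51. BT-3 was less even: 9 of its 12 windows were under -0.3, its lowest was -0.54, and it stood at -0.09 over the last 4 Mb (20 to 24 Mb). The windows of BT-4 ran from -0.13 to 0.08 and those of BT-5 from -0.20 to 0.13, against -0.06 to 0.08 in the controls.

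**Figure D1:**
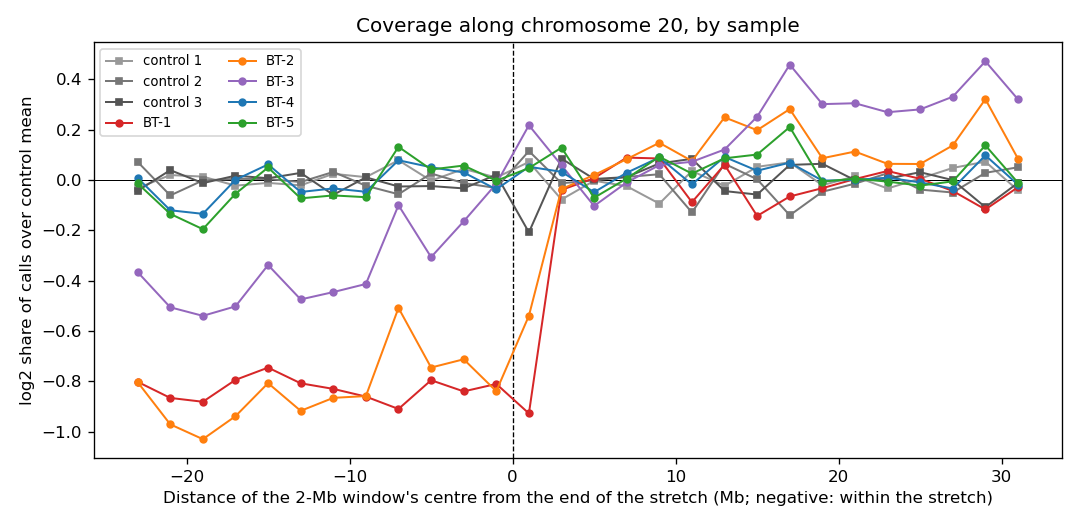
Coverage in 2-Mb windows as log2 share of calls over the control mean (vertical axis) against distance from the end of the 24-Mb stretch (horizontal axis, Mb; negative values lie within it), with squares for controls and circles for tumors. BT-1 and BT-2 lie below -0.5 in all 12 windows of the stretch and in the next window, BT-3 is lowest at -0.54, and BT-4, BT-5 and the controls stay between -0.20 and 0.13 within the stretch.

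The end of the drop did not coincide with the end of the stretch in any of the 3 tumors. Between 24 and 26 Mb, BT-1 was at -0.93 and BT-2 at -0.54, whereas BT-3 was already at 0.22, and C3 was itself at -0.21 in this window, in which 823 CpGs were read. In windows of 500 kb, BT-1 stood at -0.76 from 26 to 26.5 Mb and at -0.02 from 26.5 to 27 Mb, and BT-2 at -0.52 and -0.23 in the same windows. From 28 Mb onward BT-1 was at 0.01 and BT-2 at 0.10. BT-3 rose above the controls there, with 0.29 from 42 Mb onward. The lower share left fewer calls per tile: the median was 74, 70 and 80 in BT-1, BT-2 and BT-3, against 121, 103 and 130 in the controls, 106 in BT-4 and 143 in BT-5, so single tiles were read least precisely in the tumors with the drop.

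The first question was whether methylation in the stretch moved differently from methylation on the rest of the chromosome. The level over all member tiles was 41.3%, 39.7% and 38.6% in C1, C2 and C3. It was 42.7%, 43.9% and 41.1% in BT-1, BT-2 and BT-3, and 40.6% and 40.2% in BT-4 and BT-5. The groups overlapped, since C1 lay above BT-3, BT-4 and BT-5. The means were 39.9% ± 1.39 (SD, n = 3) and 41.7% ± 1.56 (SD, n = 5), a difference of 1.84 percentage points (two-sided exact permutation test, p = 0.161; the smallest p this design allows is 0.0179). That minimum takes the 5 tumors as separate samples. If BT-1 is merged with BT-2 and BT-4 with BT-5, this test cannot reach a p under 0.05. On the rest of chromosome 20 the difference was 2.63 points (exact permutation test, p = 0.0714). The level of the stretch minus that of the rest was lower in tumors by 0.789 points, which the exact permutation test did not separate from the spread between samples (p = 0.214). With each CpG weighted equally the same quantity was lower by 0.823 points (exact permutation test, p = 0.0357), and without BT-1 it was lower by 1.13 points (p = 0.0286). The tumors with the drop averaged 42.6% in the stretch and those without it 40.4%, while on the rest of the chromosome they averaged 42.8% and 40.9%. BT-3 alone had a level lower in the stretch than on the rest by over 1 point, at -1.23 points.

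In the 568 tiles with 10 or more CpGs, which include the CpG-dense promoters, the level was 8.06%, 7.08% and 7.45% in the controls. It was 8.76%, 9.65% and 8.37% in BT-1, BT-2 and BT-3, and 8.13% and 8.36% in BT-4 and BT-5, so every tumor lay above every control. The difference was 1.13 points (exact permutation test, p = 0.0179, the smallest possible; 0.0536 after Benjamini-Hochberg adjustment over 3 density classes, which misses the threshold of 0.05). The rest of chromosome 20 showed 4.70% ± 0.304 (SD, n = 3) in controls and 6.25% ± 0.491 (SD, n = 5) in tumors in tiles of the same density. The classes of 3 to 4 and 5 to 9 CpGs differed by -0.03 and 1.07 points in the stretch (exact permutation tests, adjusted p = 0.982 and 0.509). In those sparser classes BT-1 and BT-2 were the highest of the 8 samples, both within the stretch and on the rest of the chromosome.

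**Figure D2:**
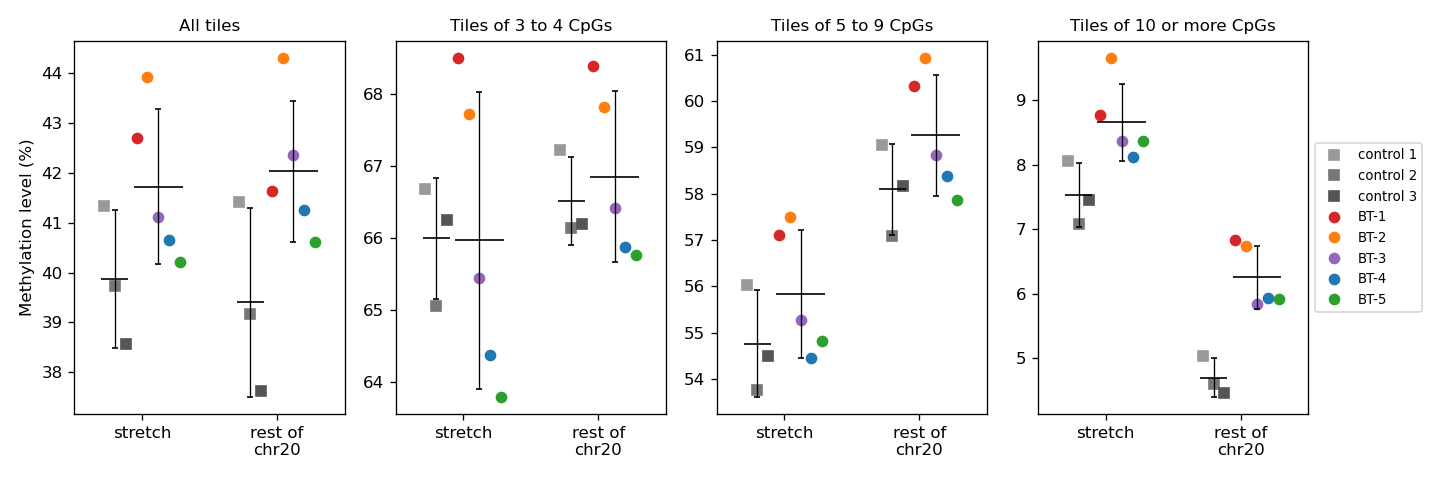
Methylation level (percent, vertical axes starting above 0) of each sample in the stretch and on the rest of chromosome 20, over all tiles and by the number of CpGs per tile; squares are controls, circles are tumors, and lines with bars give each group's mean and SD. In tiles of 10 or more CpGs the 5 tumors sit between 8.13% and 9.65% in the stretch, above the controls at 7.08% to 8.06%.

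Levels varied widely along the stretch. They were lowest from 2 to 4 Mb, at 23.2% ± 1.02 in controls (SD, n = 3) and 24.4% ± 1.29 in tumors (SD, n = 5), and highest from 16 to 18 Mb, at 81.1% ± 1.05 and 77.7% ± 1.46. None of the 12 windows passed an adjusted p of 0.05 (exact permutation tests, adjusted over 12 windows, lowest 0.214; 1 window had an unadjusted p under 0.05). From 16 to 18 Mb, where 81 tiles were measured, every tumor lay below every control by a mean of 3.43 points. From 22 to 24 Mb every tumor lay above every control by a mean of 3.20 points.

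Tiles grouped by their level in the controls are a description only, because the controls defined the groups. In the 1218 tiles under 20% in controls, the tumors stood at 7.08%, 6.60%, 3.91%, 5.15% and 4.99% (BT-1 to BT-5), against a control mean of 3.28%. The same tumors on the rest of chromosome 20 stood at 6.86%, 6.69%, 4.39%, 5.69% and 5.84%. In the 2225 tiles over 80% in controls, BT-4 and BT-5 were lowest, at 86.4% and 86.5%, against 89.4% ± 0.190 (SD, n = 3) in the controls. BT-1 and BT-2, at 89.3% and 89.1%, stayed within 1 point of the control mean in this class.

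Single tiles moved in both directions. Of the 5163 tiles, 421 (8.15%) rose and 464 (8.99%) fell in tumors by over 10 points with an adjusted p under 0.05 (quasi-binomial test on calls, Benjamini-Hochberg over all tiles of the genome). Over the whole genome 9.29% rose and 7.15% fell, and on the rest of chromosome 20 9.28% rose and 7.16% fell. The stretch thus had more tiles called lower than higher, the rest of the chromosome more called higher than lower, a contrast in counts that was not tested. All 5 tumors were above all 3 controls in 680 tiles (13.2%) and under them in 577 (11.2%), against 15.4% and 10% of tiles over the genome and 15.6% and 10.5% on the rest of the chromosome. The tiles that rose had median levels between 49.0% and 52.2% in the controls. In tumors the medians were 90.3% in BT-1, 89.5% in BT-2, 67.8% in BT-3, 86.0% in BT-4 and 85.9% in BT-5. The tiles that fell had control medians of 66.3% to 69.4%, and tumor medians of 18.4%, 14.8%, 41.1%, 14.0% and 13.1% in the same order. BT-3 lay between the controls and the other tumors in both sets.

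Some libraries were close to each other, and they weigh on these counts. Over the tiles of the stretch, BT-1 and BT-2 differed by a root mean square of 7.16 points and BT-4 and BT-5 by 5.59 points, against 6.50 to 6.65 points between controls and 14.3 to 16.5 points between other pairs of tumors. Merging each of those pairs into 1 sample left 160 tiles higher and 238 lower, and leaving out C1, C2 or C3 left 215, 195 or 167 higher and 252, 237 or 241 lower. Calls were lost over the whole genome as well. Of 257628 tiles, 23935 were called higher and 18433 lower, and merging left 11504 and 10050. Leaving out C1, C2 or C3 left 13360, 12755 or 11302 higher and 10563, 10218 or 9756 lower.

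Most called tiles had no neighbor within 1 kb that was called in the same direction. How many had a tested neighbor at that distance was not counted. The 421 tiles that rose formed 357 runs of neighbors within 1 kb, of which 304 were single tiles, and the 464 that fell formed 396 runs, of which 345 were single. The longest run to fall spanned chr20:4437001-4438400, 1400 bp that held 113 CpGs in 7 adjacent called tiles. Its level was 35.7%, 36.6% and 36.3% in the controls, 10.8%, 8.56%, 10.7% and 10.5% in BT-1, BT-2, BT-4 and BT-5, and 21.8% in BT-3, with at least 2160 calls in each sample. The controls lay within 1 point of each other there, and every tumor was below them. No promoter was placed within 1 kb of the run. The nearest placed starts were those of *RT1-CE16*, a class I antigen-presenting gene of the RT1 complex, and *Ddx39b*, an RNA helicase, at 643652 and 380858 bp.

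The next runs in length fell further. At chr20:7822001-7823000 (5 tiles, 26 CpGs, 34416 bp from the placed start of *Def6*, a signaling adaptor of lymphocytes), controls held 61.5% ± 2.79 (SD, n = 3). BT-1, BT-2, BT-4 and BT-5 held 4.91%, 2.62%, 5.19% and 3.63%, and BT-3 29.1%. At chr20:5651201-5652200 (4 tiles, 17 CpGs, 5604 bp from the placed start of *Itpr3*, an intracellular calcium release channel), the level was 57.0% ± 2.35 in controls (SD, n = 3) and 18.8% ± 6.60 in tumors (SD, n = 5). Here BT-3, at 29.5%, was again the tumor nearest the controls.

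Of the 3 longest runs that rose, chr20:14430001-14430800 (4 tiles, 25 CpGs, between the starts of *Gucd1* and *Bcr*) went from 23.2% ± 1.64 in controls (SD, n = 3) to 91.2%, 88.3%, 42.7%, 84.5% and 81.0% in BT-1 to BT-5. The run at chr20:5545601-5547200 (4 tiles, 24 CpGs, 12800 bp from the start of *Cuta* and 20130 bp from that of *Zbtb9*) went from 21% ± 3.67 to 73.8%, 84.1%, 44.5%, 77.5% and 75%. The third, chr20:19317401-19318800, held 50 CpGs around the start of *Phyhipl* (4 of its 6 tiles called) and was almost unmethylated in controls, at 2.95%, 1.33% and 1.2%. It reached 22.9%, 21.1%, 22.6% and 20.6% in BT-1, BT-2, BT-4 and BT-5. BT-3, at 2.49%, stayed among the controls, so this run rose in tumors with and without the coverage drop but not in all of them.

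**Figure D3:**
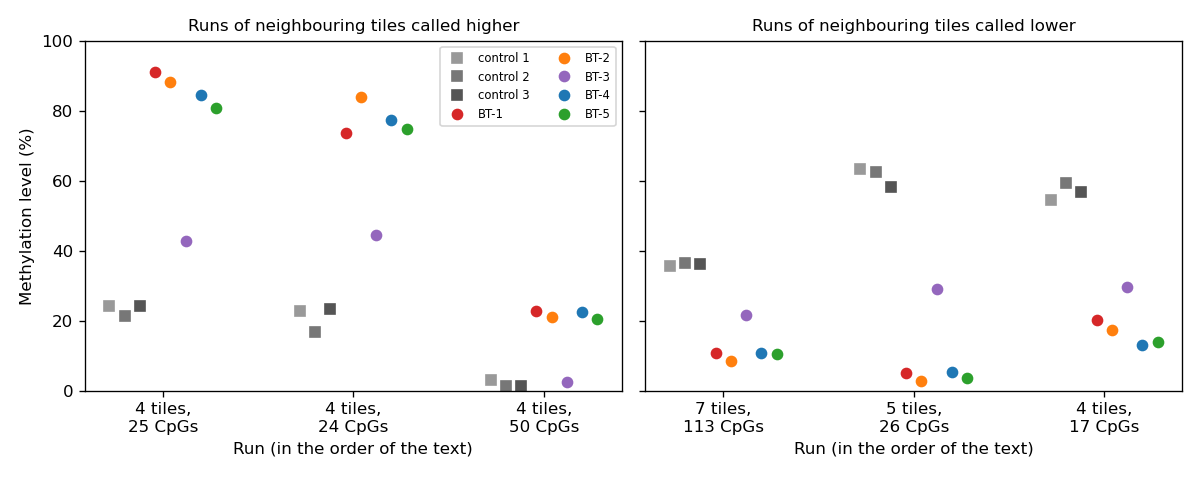
Methylation level (percent) per sample in the 3 longest runs of tiles called higher (left) and lower (right), from left to right in the order given in the text, with squares for controls and circles for tumors. BT-3 is the tumor nearest the controls in every run, at 21.8% in the run of 7 tiles where the other tumors sit between 8.56% and 10.8%.

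The single tiles with the largest differences, picked as the extremes of the called tiles, showed large shifts in BT-1, BT-2, BT-4 and BT-5. In several of them BT-3 lay between the controls and the other tumors. At chr20:8070801-8071000, 94522 bp from the start of *Pim1*, the level was 67.9%, 77.4% and 79.1% in controls and 11.6%, 11.8%, 5.48%, 2.63% and 3.37% in BT-1 to BT-5 (difference -67.8 points, quasi-binomial test, adjusted p = 0.000738). BT-3 had fallen as far as the other tumors there. At chr20:12652001-12652200, the level was 17.9%, 21% and 23.5% in controls and 98.4%, 88.9%, 47.9%, 81.1% and 87.9% in tumors (difference 60.1 points, quasi-binomial test, adjusted p = 0.00418). At chr20:7021401-7021600 it rose from 14.0% to 78.5% on average (quasi-binomial test, adjusted p = 0.00502), with BT-3 at 37.0%. A nearby tile, chr20:7008601-7008800, moved the opposite way, from 75.7% to 9.63% (quasi-binomial test, adjusted p = 0.00618), with BT-3 at 33.0%.
At chr20:22926201-22926400, 12650 bp from the start of *Reep3*, the level fell from 75.1% to 9.31% (quasi-binomial test, adjusted p = 0.00183), and at chr20:4410801-4411000 from 78.5% to 10.8% (quasi-binomial test, adjusted p = 0.00898). Of the 12 tiles named for their size of change, 10 kept their call on leaving out any 1 sample. The tile at chr20:19696201 kept it in 2 of 8 such fits (adjusted p up to 0.0938) and that at chr20:18741201 in 6 of 8 (up to 0.0727).

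Promoters mostly stayed unmethylated. Of 113 promoter windows of 300 bp placed in the stretch, which belong to 103 genes, 101 were under 5% in all 8 samples, and 103 differed by less than 2 points between groups. In all, 3 windows (2.65%) rose and 1 (0.885%) fell, where 1.82% of 7216 windows rose and 0.263% fell over the genome. Every tumor lay above every control in 8 windows (7.08%) and below in 5 (4.42%), against 8.88% and 2.16% over the genome. With so few windows the shares do not set the stretch apart. Of the windows that rose, 2 overlap and belong to LOC120098901, an uncharacterized locus on the opposite strand near the start of *Phyhipl*. In the window at chr20:19317289-19317588 the controls held 2.36%, 1.80% and 1.65%, and BT-1 to BT-5 held 13.2%, 16.3%, 3.95%, 18.4% and 16.8% (quasi-binomial test, adjusted p = 0.0104). The third, at LOC102547155, rose from 63.6% ± 3.78 (SD, n = 3) to 79.8% ± 3.43 (SD, n = 5; quasi-binomial test, adjusted p = 0.0117), and the window that fell, at LOC120098917, went from 31.5% ± 7.32 to 6.83% ± 7.42 (adjusted p = 0.0319). None of the 4 passed with the paired tumors merged. Leaving out C2 or C3 left 0 windows higher, C1 2 and BT-3 6, and the window that fell was lost on leaving out any sample except BT-3.

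*Bicc1* had the largest mean difference among promoters with low control levels, although it did not pass the threshold. At rn6 chr20:18687204-18687503 the controls held 1.62%, 0.93% and 1.99%. BT-1 and BT-2 held 43.5% and 35.8%, BT-4 and BT-5 14.2% and 15.3%, and BT-3 3.76%, so every tumor lay above every control with a wide spread among tumors (difference 21 points, quasi-binomial test, adjusted p = 0.0702; limma on M values, adjusted p = 0.00519; without BT-3, adjusted p = 0.0345). On leaving out 1 sample its adjusted p reached 0.240 (quasi-binomial test). With the F-test on percentages or with merged pairs, no window of the stretch was called higher. At the 16 CpGs with 10 or more calls in every sample, the controls reached at most 8%. The highest CpG in BT-1 was at 92.9%, 87 bases before the start, and in BT-2 at 100% (15 calls), 80 bases before it. BT-4 and BT-5 reached 38.7% and 30.4%, and BT-3 14.3%.

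*Glp1r*, *Lhfpl5* and *Phyhipl* were near 0 in controls and uneven among tumors. None of them passed the main test, and on leaving out 1 sample their adjusted p reached 0.388, 0.190 and 0.259 (quasi-binomial tests). *Glp1r* (rn6 chr20:9585825-9586124) held 18.2% and 24.4% in BT-1 and BT-2, 7.29% and 6.89% in BT-4 and BT-5, and 2.08% in BT-3, against a control mean of 1.2% (quasi-binomial test, adjusted p = 0.159; limma on M values, 0.0178). *Lhfpl5* (chr20:5815549-5815848) held 10.2%, 17.2%, 12.5% and 8.92% in BT-1, BT-2, BT-4 and BT-5, and BT-3, at 0.774%, lay within the controls' 0.672% to 1.38% (adjusted p = 0.0506; without BT-3, 0.00298). In the *Phyhipl* window (chr20:19317810-19318109), BT-4 and BT-5 held 20.6% and 26.8%, and BT-1, BT-2 and BT-3 held 3.03%, 4.26% and 1.10%, from as few as 33 calls (adjusted p = 0.0808; limma on M values, 0.0148). That order was absent in the better read flanks of *Phyhipl*. From 51 to 1000 bp after the start, BT-1, BT-2, BT-4 and BT-5 held 21.2%, 20%, 19.6% and 19.4%, and from 1000 to 251 bp before it 12%, 11.6%, 13.5% and 14.5%.

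**Figure D4:**
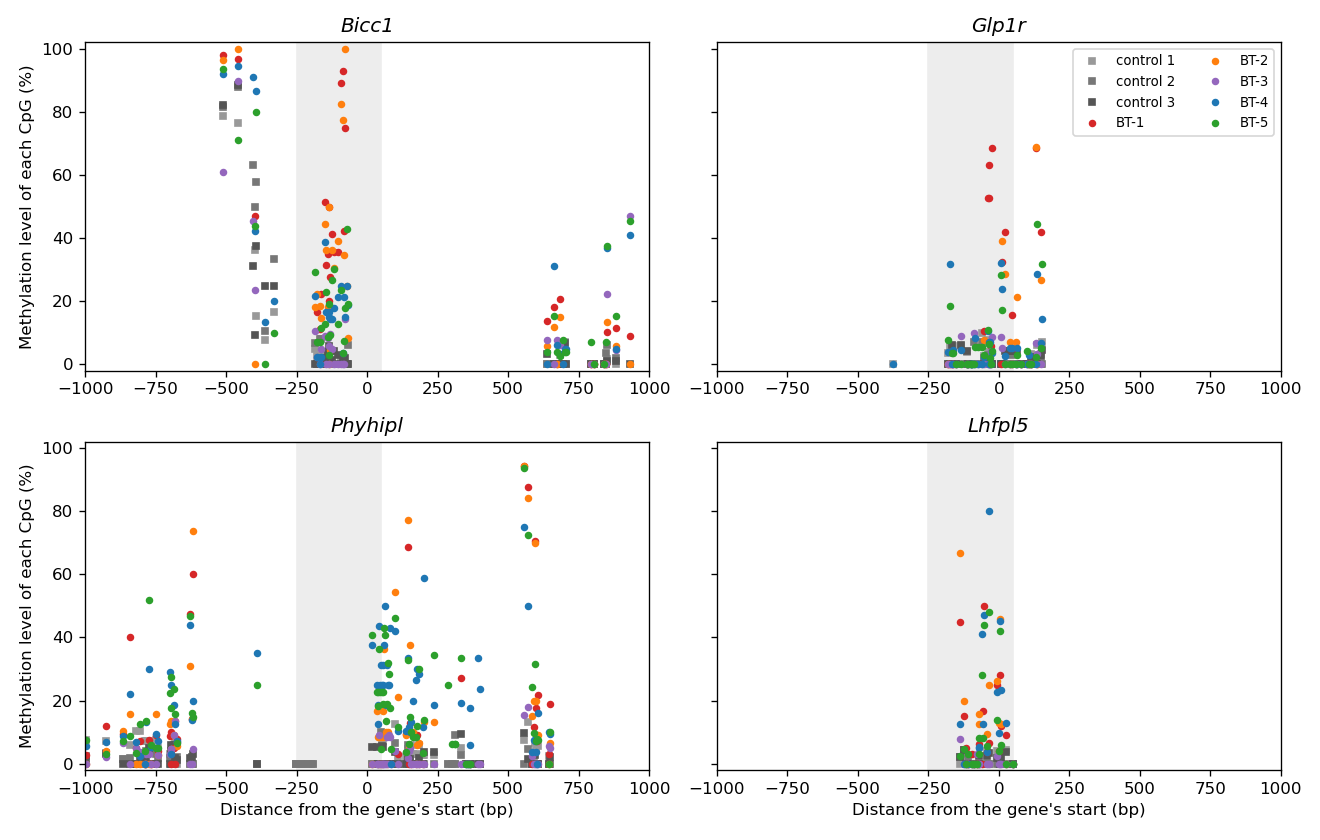
Methylation level (percent) of single CpGs with 10 or more calls against distance from the start of 4 genes (bp), with squares for controls and circles for tumors; the gray band is the promoter window from 250 bases before to 50 after the start. At Bicc1, BT-1 reaches 92.9% and BT-2 100% within the band, while the controls stay at or under 8% at the 16 CpGs of the band read 10 times or more in every sample.

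None of the placed promoters on the lists of genes by function was called. Of 12 listed genes of growth and signaling, 7 had a placed promoter (*Ddr1*, *Bak1*, *Mapk13*, *Mapk14*, *Stk38*, *Hmga1* and *Pim1*), and 0 of 7 were called, where 1.82% of windows rose and 0.263% fell over the genome, and a count of 0 is near that background. These 7 had a median difference of 0.05 points against 0.03 over the promoter windows placed in the stretch. *Pim1* had 0.252% in controls and 0.183% in tumors. *Mapk14*, the stress kinase p38 alpha, had 0.114% and 0.540%. Of 7 listed genes of DNA and chromatin, *Daxx*, a histone chaperone, and *Adarb1*, an RNA-editing enzyme, were placed, and neither was called. Of 7 genes of complement and cytokines, *Lta*, which encodes lymphotoxin alpha, was placed. It was highly methylated in controls, at 73.3%, 74.1% and 73.2%, and held 83.1%, 80.8%, 71.9%, 79.5% and 81.4% in BT-1 to BT-5 (quasi-binomial test, adjusted p = 0.211). No promoter of the 15 antigen presentation genes or the 6 matrix genes on the lists could be placed, and CpGs of theirs in tested tiles could not be assigned to them. *RT1-CE16*, which is on none of the lists, had a placed window at 0.200% in controls and 0.510% in tumors, which was not called.

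Of the regions that the study listed as hypermethylated, 2 lay in the stretch. That list was chosen on these same samples, so its direction is not independent evidence. *Pcbp3*, a poly(C)-binding RNA-binding protein, held 4.79%, 0% and 1.27% in controls at chr20:12429119-12429169. It held 52.6%, 53.7%, 12.4%, 40.1% and 29.9% in BT-1 to BT-5, and every tumor was above every control. At chr20:5815756-5815847 in *Lhfpl5*, BT-1, BT-2, BT-4 and BT-5 held 13.2%, 19.9%, 23.5% and 15.9%, and BT-3, at 0.422%, was not above the controls at 2.01%, 0% and 1.96%. The 0% in C2 rests on 123 calls at 6 CpGs of *Pcbp3* and 129 calls at 7 CpGs of *Lhfpl5*. If every call were independent, these would allow levels of up to 2.44% and 2.33% (3 calls of the total, counting error only). CpGs this close can lie on the same read, so there were fewer independent reads than calls and the limits are higher than these.

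The second question was whether tumors with the drop changed more or less in the stretch than elsewhere. The tumors were sorted by measured coverage, so these values are a description. Over all tiles, the root mean square difference from the control mean was 20.2, 20.5, 10.8, 19.2 and 19.5 points in BT-1 to BT-5, and 18.5, 18.8, 12.3, 18.1 and 18.7 points on the rest of the chromosome. Fewer calls widen this measure, so it was repeated on the 2749 tiles with 50 or more calls in every sample. The ratio of stretch to rest was then 1.03 in BT-1, 1.03 in BT-2, 1.01 in BT-4 and 0.998 in BT-5, and 0.810 in BT-3. The controls, each measured against the mean of the other controls, had ratios of 0.894 to 0.924. In these tiles BT-1 and BT-2, which had the deepest drop, had ratios near 1, as did the 2 tumors without a drop, whereas BT-3 changed less inside the stretch. The ratios of BT-1, BT-2, BT-4 and BT-5 still lay above those of the controls. Over all tiles they were 1.09, 1.09, 1.06 and 1.04, against 0.834 to 0.900 in the controls. BT-3, at 0.881, lay among the controls there. Differences between these ratios were not tested. In tiles with 50 or more calls, BT-3 differed by 9.34 points from 1 to 20 Mb. It differed by 9.28 points from 20 to 24 Mb, where its coverage was -0.09. Over all tiles these values were 10.7 and 11.6 points. A link between its change and its coverage was not tested.

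**Figure D5:**
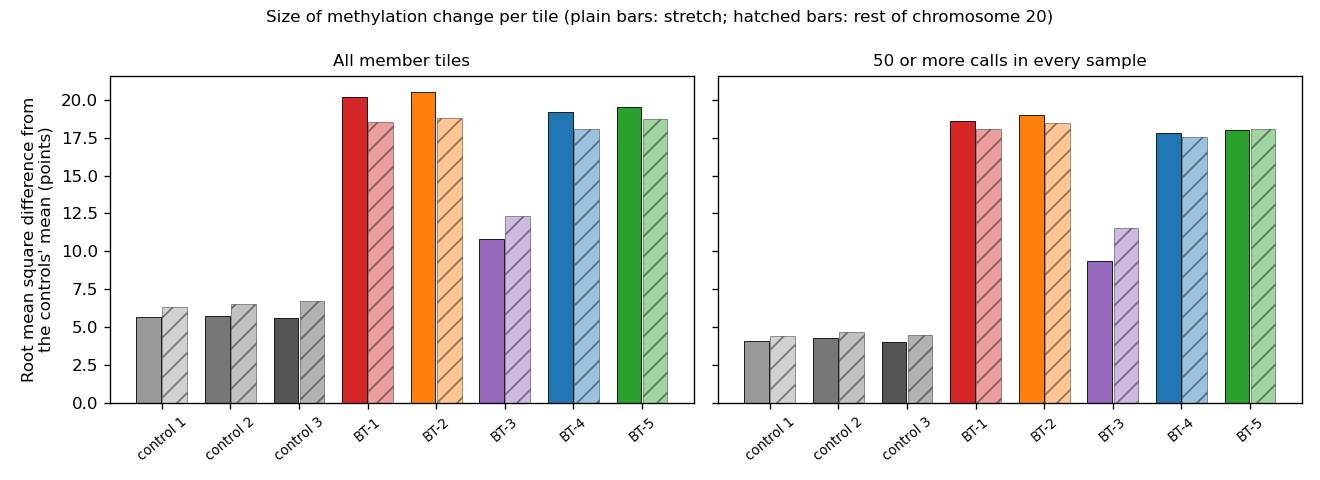
Root mean square difference from the control mean, or for a control from the mean of the other controls (percentage points, bars from 0). Bars are given for each sample in the stretch (plain bars) and on the rest of chromosome 20 (hatched bars). They cover all tiles and tiles with 50 or more calls in every sample. BT-3 is the tumor with the lower bar in the stretch, 10.8 against 12.3 points over all tiles.

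BT-3 also moved less in tiles picked by the other tumors. A tile was picked where each of the picking tumors differed from the control mean by over 20 points in the same direction. In the 267 tiles of the stretch that rose in BT-1, BT-2, BT-4 and BT-5, BT-3 exceeded the control mean by a median of 14.3 points. The median was 20 points in 195 such tiles on the rest of the chromosome and 18.5 points on chromosomes 1 to 19. In the 322 tiles that fell in those tumors its median was -20.8 points, against -25.8 and -25.1 points. In the 352 tiles that rose in BT-4 and BT-5, BT-1 and BT-2 had medians of 36 and 37.2 points in the stretch and 32.8 and 32.5 points on the rest of the chromosome. They rose by over 10 points in 86.4% and 86.9% of these tiles, against 89.7% and 88.1% on the rest. In the 542 tiles that fell in BT-4 and BT-5, BT-1 and BT-2 had medians of -28.0 and -30.6 points, against -28.6 and -29.9 points on the rest.

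The tumors with the drop were also set against those without it tile by tile. BT-1, BT-2 and BT-3 all lay above BT-4 and BT-5, with means over 20 points apart, in 324 tiles (6.28%) of the stretch, against 5.25% on the rest of the chromosome and 5.16% on chromosomes 1 to 19. They all lay below in 117 tiles (2.27%), against 2.35% and 2.02%. At chr20:7993001-7993200 the controls held 88.3%, 87.7% and 84.8% and BT-1, BT-2 and BT-3 91.2%, 83.3% and 81.1%, whereas BT-4 and BT-5 held 10.4% and 5.02%. At chr20:10675801-10676000, 4378 bp from the start of *Sik1*, a salt-inducible kinase, BT-1, BT-2 and BT-3 held 75%, 71.4% and 67.9%, near the control mean of 72.2%, and BT-4 and BT-5 10.0% and 12.8%. In both of these tiles the tumors without the drop were the ones that had left the control level.

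Other tiles moved in opposite directions. At chr20:4445401-4445600, 10 CpGs held 31.4%, 32.6% and 29.2% in controls, 10.0% and 5.71% in BT-1 and BT-2, and 68.1% and 72.7% in BT-4 and BT-5. BT-3, at 29.6%, was at the control level. At chr20:3167601-3167800, BT-1 and BT-2 held 17.1% and 21.6%, BT-4 and BT-5 87.3% and 89.2%, and BT-3 64.3%, against a control mean of 63.3%. At chr20:14255601-14255800 the order was turned, with 90.0% and 82.5% in BT-1 and BT-2, 11.8% and 8.77% in BT-4 and BT-5, 28.4% in BT-3 and 40.6% in controls on average. At chr20:12690201-12690400, BT-4 and BT-5 held 92.6% and 86.0%, BT-1 and BT-2 15.6% and 12.9%, and BT-3, at 30.4%, was again close to the control mean of 30.8%.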

How the data were processed

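RRBS libraries of 3 control bladders and 5 tumors had been sequenced, and the authors mapped trimmed reads to rn6 (RRBSMAP), counting those with a single best place once per 6-mer barcode to drop PCR copies; the submitters' processing notes name HOMER. The deposited tables give, per CpG read 3 or more times, methylated and total call counts, which were used as deposited, an effective count (an expected count, used as an alternative) and the methylation fraction with its interval, which the authors computed and which was not used here. Calls were summed over 200-bp tiles with 3 or more CpGs in each sample. Tiles were tested with a quasi-binomial F-test on calls, with the dispersion moderated by limma 3.58.1 in R 4.3.3, tested beforehand on simulated data, and Benjamini-Hochberg adjusted over 257628 tiles; a tile was called at an adjusted p under 0.05 and a difference of mean levels over 10 points. Single values were compared by two-sided exact permutation over 56 divisions of the samples.

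No rn6 annotation was used. Promoters (250 bases before to 50 after the start, RefSeq, GRCr8) were placed on rn6 by matching the spacing of their CpGs to that of the CpGs in the tables: 7346 of 33469 were placed, 99.93% of them on their own chromosome, and 7216 windows had 3 CpGs in each sample. This step and its windows were chosen after the data were seen. All members, gene lists and tests were chosen with earlier results of these data known. Named tiles are the 6 with the largest differences in each direction, 1 per 10 kb, the 3 longest runs in each direction, and the 3 tiles in each direction with the largest gap between tumors with and without the drop and 30 or more calls in every sample; promoters were named where the difference was over 5 points. Alternatives were another test, moderation, read minimum, tile size, threshold, merged pairs, a replicate block and leaving out each sample.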

Additional observations from a re-analysis of the deposited data

Results flagged for a closer look

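In 14 of 52 sets of 5 tumor values examined, 1 tumor lay far from the other 4, with a gap of over 0.71 of the whole range (Dixon's test; chance alone gives about 1 in 20), and in all 14 it was BT-3. The tiles and runs among these sets were chosen for large differences between groups, and several share positions, so the 14 are not independent. That rate also assumes 5 unrelated values, whereas BT-1 and BT-2, and BT-4 and BT-5, were close to each other over the stretch (7.16 and 5.59 points apart, against 14.3 to 16.5 points for other pairs of tumors), which leaves BT-3 as the 1 tumor with no close partner, so the rate does not apply here. The tiles at 19696201 and 18741201 kept their call in 2 and 6 of the 8 fits that left out 1 sample. Among tiles that rose, BT-3 stood at 33.3% at 13142601, 37.0% at 7021401, 66.7% at 18741201, 10.0% at 19696201 and 47.4% at 14430401, where the other tumors were at 84.6% or above. Among tiles that fell, BT-3 stood at 39.4% at 4410801, 33.0% at 7008601 and 70.6% at 19897401, where the others were at 20% or below. Among runs, BT-3 held 42.7% at 14430001, 44.5% at 5545601, 2.49% at 19317401, 21.8% at 4437001 and 29.1% at 7822001. In the promoter window of LOC120098917 it held 20%, against 2.23% to 4.66% in the other tumors.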

How the results depend on the processing

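Tiles called higher in the stretch (421) came to 250 with an F-test on percentages, 243 with no moderation, 264 at a difference over 20 points, 197 at 10 reads per CpG, 160 with BT-1 and BT-2, and BT-4 and BT-5, merged, and 167 to 627 on leaving out 1 sample. Tiles called lower (464) came to 293, 235 and 238 with no moderation, at 10 reads and with merged pairs, to 737 with a minimum of 10 calls in place of 3 CpGs, and to 237 to 584 on leaving out 1 sample. With the replicate block (limma on M values) 278 were higher and 290 lower. Over the genome, tiles called higher (23935) came to 16326, 15138, 14877, 14586 and 11504 in the order given, up to merged pairs. Tiles called lower (18433) came to 12372, 9963 and 10050 there with no moderation, at 10 reads and with merged pairs. Samples with the same number did not deviate together (correlations 0.01, -0.01 and 0.04). The larger differences between tumors could hide a weak pairing, so this check does not exclude it.

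Promoter windows called higher (3) came to 5 with limma on M values, 4 with the replicate block, 1 with no moderation, 0 with the F-test and with merged pairs, and 0 to 6 on leaving out 1 sample. The 1 window called lower came to 0 with no moderation, the F-test and merged pairs, and to 0 to 1 on leaving out 1 sample.

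The level of the stretch minus the rest of chromosome 20 passed the exact permutation test only with the mean of CpG levels (-0.823 points, p = 0.0357) and without BT-1. It ranged from -1.13 to -0.56 points on leaving out 1 sample. The difference of the stretch itself ranged from 1.19 to 2.57 points. The difference in tiles of 3 to 4 CpGs ranged from -0.66 to 0.51 points, and from 4 to 6 Mb from -0.18 to 1.14 points; neither was called.

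Coverage on the log2 scale over CpGs listed in all 8 samples was -0.80, -0.85, -0.38 and -0.0516 in BT-1, BT-2, BT-3 and BT-5. Relative to chromosome 20 past 24 Mb it was -0.98, -0.60, -0.0477 and -0.0840 in BT-2, BT-3, BT-4 and BT-5. As the number of CpGs listed it was -0.19, -0.22, -0.10, -0.000711 and -0.0137 in BT-1 to BT-5. In some tiles named for the gap between tumors, the difference of all tumors from controls turned sign on leaving out 1 sample. The gap itself was not refitted. The difference from controls ranged from -7.72 (without BT-1) to 12.6 (without BT-5) at chr20:14255601. At chr20:4445401 it ranged from -2.74 (without BT-5) to 14.0 (without BT-2), and at chr20:3167601 from -15.7 (without BT-5) to 2.36 points (without BT-1). The cause of these shifts was not tested. The lower depth of BT-1, BT-2 and BT-3 in the stretch limits the precision of their single tiles.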
